A study of Mus musculus with 11 samples.

Results

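Spleens of lupus-prone Fas lpr mice were compared with spleens of uninjected C57BL/6 (B6) mice over 93 genes. The mice were chosen by their sample titles, as the 7 titled WT/Mrl or cGAS/Mrl and the 2 B6 mice that had not been injected, which makes 9 of the 11 samples in the series. Transcripts were counted with a custom NanoString nCounter probe set, which reads barcoded probes hybridized to RNA without amplification, from 50 ng of total RNA per spleen, and all mice were female. The 3 WT/Fas lpr mice (titled WT/Mrl) carry the Fas lpr allele on the MRL/MpJ background, and the 4 cGAS KO/Fas lpr mice (titled cGAS/Mrl, without the word KO) are littermates from a line in which CRISPR/Cas9 removed an exon of cGAS. The 1 B6 WT mouse and the 1 B6 cGAS KO mouse, the latter from a line of the European mutagenesis program, have neither the MRL background nor Fas lpr. Strain background and the Fas lpr allele therefore cannot be told apart in any value below. The labels of the samples do not give the age of the mice.

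Fas is a death receptor through which activated lymphocytes are removed, and mice with the lpr allele accumulate lymphocytes in spleen and lymph nodes and make autoantibodies. Interferon-gamma, made largely by T cells and NK cells, acts through its receptor to induce the transcription factor Irf1, the chemokines cxcl9 and cxcl10, GTPases such as Ifi47 and the MHC class I activator nlrc5. Type I interferons induce a partly shared set of antiviral genes, and cGAS is a cytosolic DNA sensor that can start their production.

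Genes for cGAS, STING and Fas are not on the panel, so that none of the genotypes could be looked at in these values. Of the markers listed for 9 blood and spleen cell types, the panel holds only prdm1 (plasma cells) and ccr2 (monocytes), and the tissue could not be checked further. The paper names total splenocytes as the material of its gene expression analysis. In such a mixture of spleen cells, a change in the number of cells of a type and a change in RNA per cell cannot be told apart. The deposited signal of each mouse was a whole-number count times a single factor, and the counts could be read back for every gene. This factor was 0.67 to 1.36 in the 7 Fas lpr mice, 0.082 in the B6 WT mouse and 0.30 in the B6 cGAS KO mouse. Total counts were 28406 to 58404 in the 7 Fas lpr mice, 3612 in the B6 WT mouse and 12386 in the B6 cGAS KO mouse. The median count per gene was 106 to 207, 21 and 36, and 10 to 16, 46 and 26 genes had fewer than 20 counts. The B6 mice, and above all the B6 WT mouse, were thus measured on far fewer counts from the same amount of RNA, and the part of this in the results below was not tested.

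On the deposited scale, every gene was higher in Fas lpr than in B6 spleens, with a median log2 difference of 5.18. Both the lower counts and the smaller factors of the B6 mice enter this difference. Values were therefore expressed as log2 signal minus the median over the 93 genes of the same mouse, called the centred value here, so that a gene called higher or lower has moved relative to the middle of the panel. On this scale the 7 Fas lpr mice were close to each other, with Pearson correlations across genes of 0.969 to 0.992, as compared to 0.775 to 0.804 with the B6 WT mouse and 0.844 to 0.870 with the B6 cGAS KO mouse. Genes are not independent replicates, so these are given as descriptions. The B6 mice correlated with each other at 0.873. The median SD of a gene over the 7 Fas lpr mice was 0.23, while the median absolute difference between the B6 mice was 0.70. Centred values also covered a narrower range in the B6 mice, with an SD over genes of 1.52 in B6 WT and 2.06 in B6 cGAS KO as compared to 2.39 to 2.49 in Fas lpr mice.

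The gene with the largest rise was cxcl9, and the other interferon-gamma targets Ifi47, Irf1, cxcl10 and nlrc5 were also called higher, together with tgfb1, cxcl6, ccl5, Icam1, socs1 and adar. Called lower were the interferon genes Ifnb1, Ifna4 and Ifng, the transcription factors Irf2 and Irf5, socs3, and 6 of 10 proinflammatory cytokines. Low counts limit several of these falls. Ifnb1 and Ifna4 had few counts in every mouse, and Ifng had more counts in every Fas lpr mouse than in either B6 mouse. Of the 6 cytokines, 4 had fewer than 20 counts in both B6 mice. In all, 21 genes were called higher and 31 lower (limma over 7 and 2 mice, two-sided, Benjamini-Hochberg adjusted p under 0.05), which is 22.6% and 33.3% of the panel and 55.9% for both directions. The fit takes a single spread per gene for both groups. The B6 mice add to it only the difference between 2 mice of unlike genotype. Standard errors and p-values of this fit therefore rest largely on the Fas lpr mice and do not measure the spread among B6 mice. All 7 Fas lpr mice lay above both B6 mice for 14 genes (15.1%) and below both for 29 (31.2%), and 14 of the 21 higher and 27 of the 31 lower calls were among these. Since 9 mice can be divided into 7 and 2 in only 36 ways, the smallest exact two-sided Mann-Whitney p is 0.0556, and 0 genes were called with that test. The split of calls depends on the setting, with 27 higher and 23 lower when mice were centred on the mean, 10 and 44 on the upper quartile, 14 and 33 as shares of the panel total, and 24 and 23 with limma's voom on the counts, which changes the model together with the scaling. The median difference over the panel was -0.10 with the median, 0.16 with the mean, -0.56 with the upper quartile, -0.31 with shares and 0.03 with voom. On the deposited scale all 93 genes were called higher.

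All 7 interferon-gamma axis genes on the panel were called, 6 of them higher and 1 lower, beside 22.6% and 33.3% of the panel. Their median difference was 1.21 as compared to -0.10 over all 93 genes. This median depends on the B6 mouse, with 2.10 against B6 WT and 0.52 against B6 cGAS KO, beside 0.02 and -0.47 over all 93 genes. The chemokine cxcl9, which attracts activated T cells through the receptor CXCR3, had centred values of 3.54 to 4.10 (median 3.66) in the 7 Fas lpr mice, -0.39 in B6 WT and -0.13 in B6 cGAS KO. Every Fas lpr mouse was far above both B6 mice. The difference was 4.01 (standard error 0.21, 16.2-fold, adjusted p = 1.3e-08), with counts of 1236 to 2717 in Fas lpr, 16 in B6 WT and 33 in B6 cGAS KO mice. Ifi47, an interferon-inducible GTPase of the IRG family, was at 3.93 to 4.26 (median 4.05) in Fas lpr, 1.47 in B6 WT and 1.76 in B6 cGAS KO. Its groups were also far apart, with a difference of 2.44 (standard error 0.19, 5.44-fold, adjusted p = 3.29e-07). The difference of Ifi47 was 2.59 against B6 WT and 2.30 against B6 cGAS KO alone, so that the choice of B6 mouse mattered little.

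Irf1, a transcription factor that many interferon-gamma targets require, varied little between the Fas lpr mice. Its centred values were 3.83 to 3.95 (median 3.86, SD 0.04, n = 7) in Fas lpr, 2.40 in B6 WT and 3.35 in B6 cGAS KO. All Fas lpr mice were above both B6 mice, with a difference of 0.99 (standard error 0.23, limma adjusted p = 0.00328). It was not called in the cGAS mice alone (0.53, adjusted p = 0.0542, 4 against 1 mouse). cxcl10, the other CXCR3 ligand on the panel, was at 1.60 to 2.18 (median 1.75) in Fas lpr, -0.39 in B6 WT and 1.64 in B6 cGAS KO. Its counts were only 16 in B6 WT and 112 in B6 cGAS KO. For this gene the B6 cGAS KO mouse fell within the range of the Fas lpr mice. The difference of 1.21 (standard error 0.39, limma adjusted p = 0.021) therefore depends on the B6 WT mouse, as it was 0.20 (adjusted p = 0.48) when that mouse was left out. The same held for nlrc5, which was at 2.41 to 2.89 (median 2.80) in Fas lpr, 0.65 in B6 WT and 2.69 in B6 cGAS KO. Its difference was 1.08 (standard error 0.38, adjusted p = 0.033) over both B6 mice and 0.05 (adjusted p = 0.791) without B6 WT, and its call was also lost without cGAS KO/Fas lpr mouse 1 (1.05, adjusted p = 0.0501) or mouse 4 (1.06, adjusted p = 0.0518). The cxcl10 call was also lost with centring on the upper quartile. cxcl9, Ifi47 and Irf1 kept their calls without either B6 mouse.

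**Figure D1:**
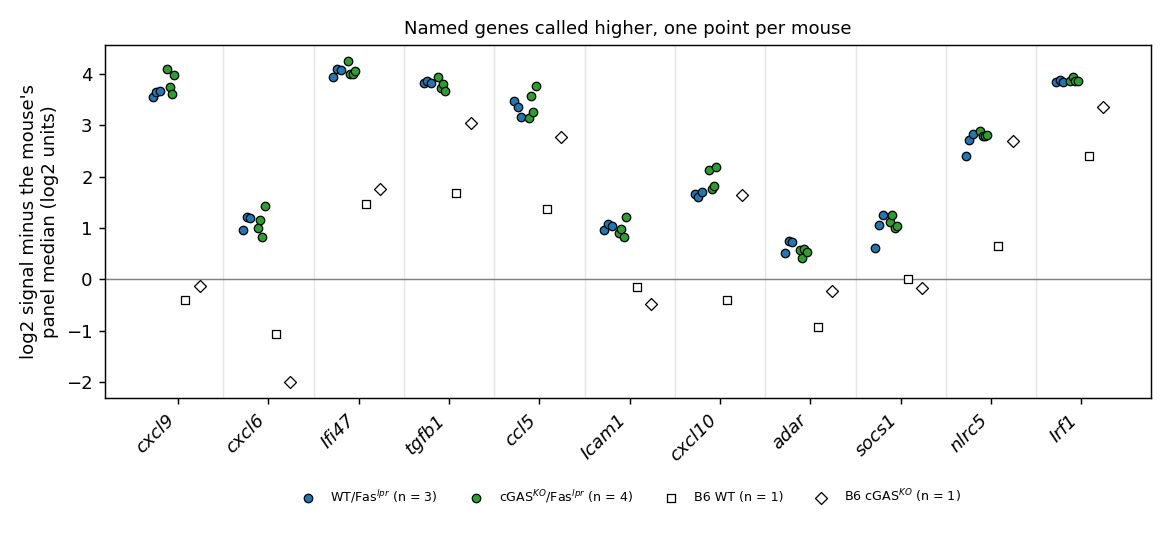
Centred log2 values (log2 signal minus the panel median of the mouse) of 11 genes called higher, with a point for each mouse, filled for Fas lpr and open for B6. The Fas lpr points of cxcl9 lie at 3.54 to 4.10 against -0.39 and -0.13 in the B6 mice, while the B6 cGAS KO point of cxcl10 (1.64) and nlrc5 (2.69) lies among those of Fas lpr; on the deposited scale every gene of the panel was higher in Fas lpr.

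Among the chemokines and their receptors, 4 of 9 genes were called higher and 2 lower, beside 22.6% and 33.3% of the panel, with a median difference of 0.29 (0.47 against B6 WT and 0.20 against B6 cGAS KO). Of the 4, cxcl10 depends on the B6 WT mouse, as given above, and cxcl6 has very few counts in the B6 mice. A large rise was that of cxcl6, a CXC chemokine that recruits neutrophils and whose panel name RefSeq lists as a synonym of Cxcl5. Its centred values were 0.83 to 1.42 (median 1.15) in Fas lpr, -1.07 in B6 WT and -2.0 in B6 cGAS KO. The groups did not overlap, and the difference was 2.65 (standard error 0.255, adjusted p = 2.97e-06). Only 10 and 9 counts were recorded for cxcl6 in the B6 mice, as compared to 207 to 475 in Fas lpr, and the difference was 1.57 with counts raised to at least 20, so that its size is not well determined. The T cell and NK cell chemokine ccl5 was at 3.14 to 3.76 (median 3.36) in Fas lpr, 1.36 in B6 WT and 2.78 in B6 cGAS KO. It was higher in all 7 mice than in both B6 mice, by 1.32 (standard error 0.31, adjusted p = 0.00346). In the cGAS mice alone the ccl5 difference was 0.65 (adjusted p = 0.116).

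Of the remaining named genes called higher, tgfb1, which encodes an anti-inflammatory cytokine, was at 3.66 to 3.95 (median 3.81) in Fas lpr, 1.67 in B6 WT and 3.03 in B6 cGAS KO. The groups were apart for tgfb1, with a difference of 1.45 (standard error 0.28, 2.73-fold, adjusted p = 0.001), and the distance to B6 WT (2.13) was larger than that to B6 cGAS KO (0.77). Icam1, the endothelial and leukocyte adhesion molecule, was at 0.82 to 1.21 (median 0.98), -0.14 and -0.47 in the same order. Icam1 was above both B6 mice in all 7 mice, by 1.30 (standard error 0.20, 2.47-fold, adjusted p = 0.00015). The feedback inhibitor socs1, which blocks JAK kinases downstream of interferon receptors, was at 0.62 to 1.25 (median 1.06), 0.00 and -0.17. All 7 mice were again above both, and the socs1 difference was 1.13 (standard error 0.21, 2.19-fold, adjusted p = 0.000852). The RNA-editing enzyme adar was at 0.42 to 0.75 (median 0.58) in Fas lpr, -0.93 in B6 WT and -0.22 in B6 cGAS KO, a difference of 1.16 (standard error 0.22, adjusted p = 0.000852) without overlap. The adar difference was 1.52 to B6 WT and 0.81 to B6 cGAS KO. Counts in these 2 mice were low, with 11 and 31 for adar and 19 and 26 for Icam1.

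The 3 interferon genes on the panel were all called lower, beside 33.3% of the panel. Their median difference was -3.32, as compared to -0.10 over all 93 genes. Ifng, which encodes interferon-gamma itself, was at -2.34 to -1.10 (median -1.92) in Fas lpr, -0.81 in B6 WT and -0.92 in B6 cGAS KO. All 7 mice were below both B6 mice, by -0.95 (standard error 0.28, adjusted p = 0.0124), and the call was lost without B6 WT (-0.90, adjusted p = 0.0565). The counts behind Ifng were 21 to 71 in Fas lpr, 12 in B6 WT and 19 in B6 cGAS KO, so that the gene had more counts in Fas lpr spleens and less of them relative to the panel. Ifnb1, the interferon-beta gene, was at -4.11 to -3.41 (median -3.92), -0.30 and -0.65 in the same order, a difference of -3.32 (standard error 0.25, adjusted p = 2.28e-07). Ifna4 was at -5.80 to -4.23 (median -4.73), -0.58 and -1.71, a difference of -3.58 (standard error 0.40, adjusted p = 1.15e-05). Both were far below the B6 mice in every Fas lpr mouse. Their counts, however, were 9 to 19 for Ifnb1 and 3 to 11 for Ifna4 in Fas lpr, against 17 and 23, and 14 and 11, in the B6 mice.

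Of the 15 genes on the panel that are known as targets of type I interferon, 2 were called higher and 3 lower, and 10 were not called, so that both shares are below those of the panel (22.6% and 33.3%). Their median difference was 0.07 (0.02 against B6 WT and -0.29 against B6 cGAS KO), beside -0.10 over all 93 genes. Called higher were adar and Ifi204. The DNA-binding protein gene Ifi204 was at -1.18 to -0.76 (median -0.89) in Fas lpr, -0.93 in B6 WT and -2.85 in B6 cGAS KO. B6 WT thus lay within the range of the Fas lpr mice, and the difference of 0.98 (limma adjusted p = 0.0376) depends on the B6 cGAS KO mouse, which had 5 counts, as it was 0.02 (adjusted p = 0.925) without it. The Ifi204 call was lost when any Fas lpr mouse other than cGAS KO/Fas lpr mouse 3 was left out (0.95 to 1.00, adjusted p = 0.0505 to 0.0593). It was also lost in other settings, among them centring on the upper quartile (0.52), shares of the panel total (0.77) and a pseudocount of 1 (0.47). With counts raised to at least 20, the Ifi204 difference turned to -0.45. Called lower were Ifit1, oas2 and mnda.

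Ifit1, an inhibitor of viral RNA translation, was at -2.48 to -1.50 (median -2.03) in Fas lpr, -0.93 in B6 WT and -1.26 in B6 cGAS KO. It was below both B6 mice in all 7 mice, by -0.86 (standard error 0.25, adjusted p = 0.0124), and the call was lost without B6 WT (-0.69, adjusted p = 0.067). Ifit1 had 26 to 73 counts in Fas lpr and only 11 in B6 WT and 15 in B6 cGAS KO, so that it was lower relative to the panel and not in counts. The 2-5A synthetase gene oas2 was at -1.12 to -0.21 (median -0.56), 0.41 and 0.22, without overlap and with a difference of -0.89 (standard error 0.25, adjusted p = 0.0103). The oas2 call was lost with centring on the mean (-0.64, adjusted p = 0.0524), with voom (-0.63, adjusted p = 0.0734) and in the cGAS mice alone (-0.79, adjusted p = 0.124), and the calls of Ifit1 and Ifng were lost in the same settings. mnda belongs to the PYHIN gene cluster, whose members are similar in sequence and differ between mouse strains, and RefSeq lists this name as a synonym of Ifi211. It was at -1.73 to -0.72 (median -1.30) in Fas lpr, 0.19 in B6 WT and 0.19 in B6 cGAS KO, a difference of -1.42 (standard error 0.28, adjusted p = 0.00107). Whether the probes for mnda, mndal, Ifi204 and Ifi205 bind MRL and B6 transcripts equally was not tested.

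Among the type I interferon targets that were not called, the PYHIN family gene Ifi205 (0.25), the transcription factor Irf7 (0.03), the exonuclease trex1 (0.12), the nucleic acid sensor zbp1 (0.42) and the RNA helicases mda5 (-0.20) and lgp2 (-0.21) had small differences from both B6 mice together. Those of zbp1 (0.74 against B6 WT and 0.09 against B6 cGAS KO) and Ifi205 (-0.03 and 0.53) depend on the B6 mouse. viperin, an antiviral radical SAM enzyme, was at 3.10 to 3.73 (median 3.47) in Fas lpr, 2.44 in B6 WT and 4.19 in B6 cGAS KO. The Fas lpr mice thus lay between the B6 mice, and so did those of Ifit2 (-0.73 to -0.15 against -1.22 and 0.12) and samhd1 (2.61 to 2.84 against 1.34 and 3.00). For mndal, the range of 3.63 to 4.06 in Fas lpr included the B6 WT mouse (3.75), while the B6 cGAS KO mouse was at 5.66. The difference of mndal was 0.12 against B6 WT and -1.79 against B6 cGAS KO.

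Of the 31 genes called lower, 9 had at least 20 counts in both B6 mice, and among these Irf2 and Irf5 were the most abundant of those named. Irf2, a transcription factor that competes with Irf1 for its binding sites, was at 1.80 to 2.28 (median 1.86) in Fas lpr, 3.03 in B6 WT and 3.59 in B6 cGAS KO. All 7 mice were below both, and the difference was -1.32 (standard error 0.23, 2.5-fold lower, adjusted p = 0.000458). Irf5, which acts downstream of Toll-like receptors, was at 1.46 to 2.34 (median 2.14), 2.93 and 3.68. Irf5 was also lower without overlap, by -1.24 (standard error 0.27, 2.37-fold lower, adjusted p = 0.00198). The counts were 376 to 875 for Irf2 and 417 to 1021 for Irf5 in Fas lpr, and 172 and 433, and 160 and 462, in the B6 mice.

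The feedback inhibitor socs3, which acts mainly on receptors of the interleukin-6 family, moved opposite to socs1 relative to the panel. Its centred values were -0.60 to -0.07 (median -0.31) in Fas lpr, 1.42 in B6 WT and 1.06 in B6 cGAS KO. The socs3 difference was -1.54 (standard error 0.22, 2.91-fold lower, adjusted p = 0.000126), with no overlap and with 100 to 166, 56 and 75 counts. nlrp3, the inflammasome sensor, was at -0.51 to 0.39 (median -0.10), 1.10 and 0.78, and was lower by -1.01 (standard error 0.25, adjusted p = 0.00436). Its call was lost in the cGAS mice alone (-0.83, adjusted p = 0.131). prdm1, which encodes the plasma cell factor Blimp-1 and is also expressed in effector T cells, was at -1.23 to -0.74 (median -0.82) in Fas lpr, -0.22 in B6 WT and 0.32 in B6 cGAS KO. All 7 mice were below both for prdm1, by -0.97 (standard error 0.22, adjusted p = 0.00263). The monocyte marker ccr2, the only other listed cell type marker, was at 1.40 to 1.85 (median 1.61) in Fas lpr and lay between B6 WT (2.15) and B6 cGAS KO (0.92).

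**Figure D2:**
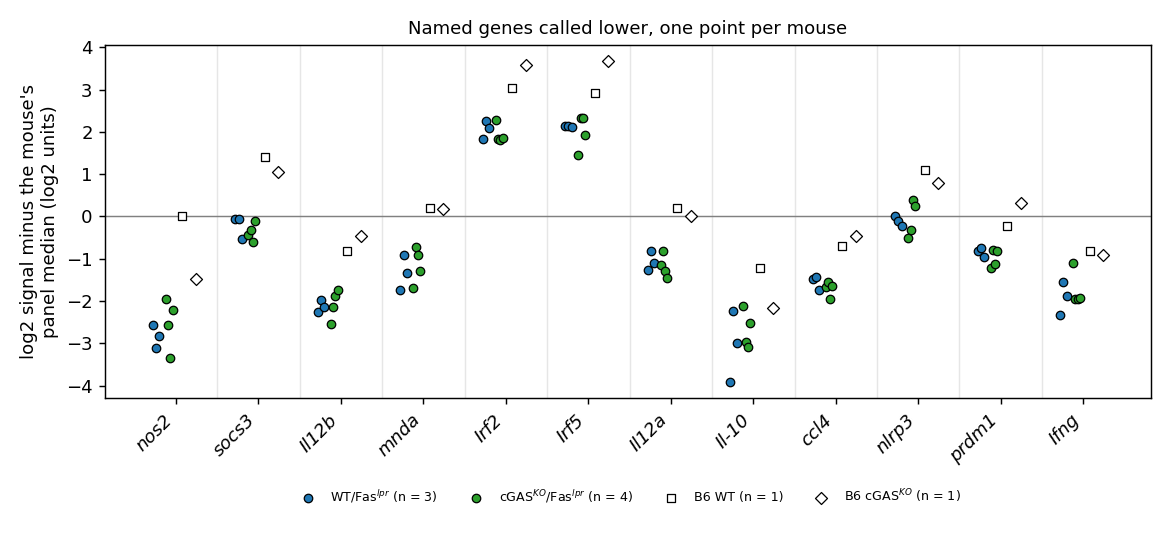
Centred log2 values of the 12 genes with the largest falls among those called lower with a mean count of at least 20, with a point for each mouse. The Fas lpr points of Irf2 lie at 1.80 to 2.28, below the B6 mice at 3.03 and 3.59, and those of Il-10 reach the B6 cGAS KO mouse (-2.17); on the deposited scale these genes were higher in Fas lpr.

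Among proinflammatory cytokines 0 of 10 genes were called higher and 6 lower, beside 22.6% and 33.3% of the panel, with a median difference of -0.98. Of these 6, however, 4 had fewer than 20 counts in both B6 mice. Both subunit genes of interleukin-12, which drives interferon-gamma production, were among the 6 genes called lower and not among these 4. Il12a was at -1.45 to -0.81 (median -1.14) in Fas lpr, 0.19 in B6 WT and 0.00 in B6 cGAS KO, a difference of -1.22 (standard error 0.22, adjusted p = 0.000715). Il12b was at -2.55 to -1.74 (median -2.13), -0.81 and -0.47, a difference of -1.46 (standard error 0.24, adjusted p = 0.000262). Neither overlapped with the B6 mice. Il12b had 22 to 50 counts in Fas lpr and 12 and 26 in the B6 mice, which is near the limit of 20. The anti-inflammatory cytokine list had 2 of 5 genes called higher and 3 lower, beside 22.6% and 33.3% of the panel. Its median difference was -1.14, with -1.61 against B6 WT and -0.66 against B6 cGAS KO. All 3 genes called lower had fewer than 20 counts in both B6 mice. Il-10, 1 of the 3, was at -3.92 to -2.12 (median -2.96) in Fas lpr, -1.22 in B6 WT and -2.17 in B6 cGAS KO, with overlap and with only 7 to 37, 9 and 8 counts. Its difference of -1.14 (limma adjusted p = 0.0351) was not called without B6 WT (-0.66), WT/Fas lpr mouse 3 (-1.11, adjusted p = 0.0523), cGAS KO/Fas lpr mouse 2 (-1.12, adjusted p = 0.0524) or mouse 3 (-1.10, adjusted p = 0.0507). The Il-10 call was also lost with centring on the mean (-0.88, limma adjusted p = 0.106), with shares (-1.34, adjusted p = 0.0545) and with voom (-0.81, adjusted p = 0.161).

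Among the enzymes of arginine and prostaglandin metabolism 0 of 4 genes were called higher and 3 lower, beside 22.6% and 33.3% of the panel. Their median was -1.30, and 2 of the 3 called lower had fewer than 20 counts in both B6 mice. nos2, the inducible nitric oxide synthase, was at -3.34 to -1.96 (median -2.57) in Fas lpr, 0.00 in B6 WT and -1.47 in B6 cGAS KO, and was lower by -1.92 (standard error 0.40, adjusted p = 0.00141). It had 15 to 39 counts in Fas lpr and 21 and 13 in the B6 mice, and the call was lost in the cGAS mice alone (-1.05, adjusted p = 0.138). The CC chemokine ccl4 was at -1.96 to -1.42 (median -1.66), -0.69 and -0.47, lower in all 7 mice by -1.06 (standard error 0.21, adjusted p = 0.00098). Of 4 costimulation and adhesion genes 3 were called higher and 0 lower, beside 22.6% and 33.3% of the panel. The median of these 4 was 0.81, with 1.16 against B6 WT and 0.26 against B6 cGAS KO. Without B6 WT, the calls of the costimulatory ligands cd80 (0.07, adjusted p = 0.781) and cd86 (0.45, adjusted p = 0.213) were lost, and that of Icam1 was kept. The cd80 call was also lost when any Fas lpr mouse other than cGAS KO/Fas lpr mouse 3 was left out (adjusted p = 0.0529 to 0.0769). Of 21 sensors and adaptors 4 were called higher and 3 lower (median -0.20, with 0.12 against B6 WT and -0.25 against B6 cGAS KO), and of 8 NF-kB subunits and feedback genes 1 was called higher and 2 lower (median -0.03, with 0.66 and -0.89), so that the direction of both medians changes with the B6 mouse. For both of these lists the shares called are below those of all 93 genes (22.6% higher and 33.3% lower). Of the 16 panel genes in no list, 3 were called higher and 6 lower, beside 22.6% and 33.3% of the panel. Their median was -0.23, with -0.08 against B6 WT and -0.58 against B6 cGAS KO.

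The largest falls on the centred scale were found among genes with very few counts. Of the 31 genes called lower, 15 had fewer than 20 counts in both B6 mice, as compared to 4 of the 21 called higher, and 24 of all 93 genes. In 12 of the 31, 10 of them among these 15, the mean count over the 9 mice was under 20. For the 21 called higher this number was 0, but 7 of the 9 mice are Fas lpr, where those genes are high. The 12 and the 0 can therefore not be compared. Besides Ifna4 and Ifnb1, the named genes with a mean count under 20 are eya4, Il23a and Il13. eya4, a transcriptional coactivator and phosphatase gene, was at -4.58 to -3.92 (median -4.08) in Fas lpr, -0.69 in B6 WT and -0.42 in B6 cGAS KO. It had 7 to 12 counts in Fas lpr, 13 in B6 WT and 27 in B6 cGAS KO, and a difference of -3.58 (standard error 0.23, adjusted p = 5.2e-08). Il23a, which encodes a subunit of interleukin-23, had 2 to 12, 7 and 9 counts and a difference of -3.21 (standard error 0.46, adjusted p = 0.000114). Its counts were alike in both strains while the median count of the panel was several times higher in Fas lpr. eya4, Ifna4 and Ifnb1 were the only genes called lower for which a B6 mouse had more counts than every Fas lpr mouse. A background level of probe counts was not analysed here, and its part in these falls was not tested.

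**Figure D3:**
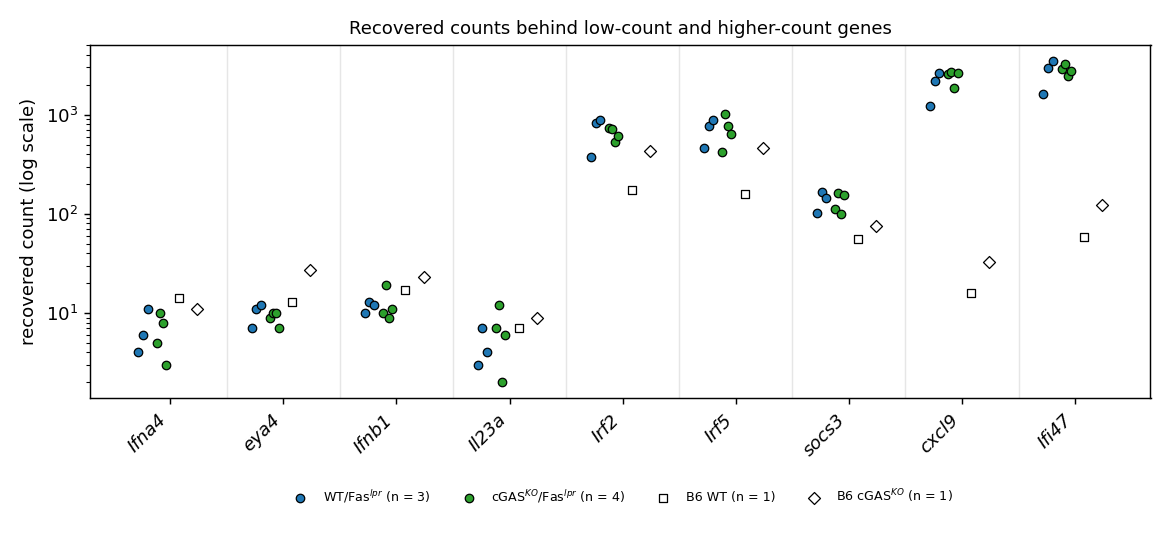
Recovered counts on a log axis for genes with few counts and genes with more, with a point for each mouse. Counts of Ifnb1 are 9 to 19 in Fas lpr mice and 17 and 23 in the B6 mice, while those of cxcl9 are 1236 to 2717 and 16 and 33.

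The B6 mice differed from each other most in duba, cox2, a20 and Il13. duba, a deubiquitinase gene that restrains type I interferon induction, was at 1.49 in B6 WT and 4.36 in B6 cGAS KO and at 3.28 to 3.88 (median 3.53) in the 7 Fas lpr mice. The Fas lpr mice lay between the B6 mice, with a mean difference of 2.06 to B6 WT and -0.81 to B6 cGAS KO. a20, the NF-kB feedback inhibitor, was at 0.70 in B6 WT, 2.85 in B6 cGAS KO and 1.73 to 2.03 (median 1.91) in Fas lpr. cox2, the inducible prostaglandin synthase, was at -3.39, -0.65 and -2.12 to -1.0 (median -1.79) in the same order, with 2 counts in B6 WT and 23 in B6 cGAS KO. For these 3 genes the Fas lpr mice were again in between, and none was called against both B6 mice together. Il13, which encodes a type 2 cytokine, was at -0.69 in B6 WT, -2.85 in B6 cGAS KO and -5.14 to -3.64 (median -4.34) in Fas lpr, with 13, 5 and 3 to 14 counts. It was lower than both, by -2.68 (standard error 0.51, adjusted p = 0.000934).

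Against each B6 mouse alone, 66 of the 93 genes had the same sign of difference, among them all 21 called higher and all 31 called lower. A total of 47 genes were higher than in B6 WT and 34 higher than in B6 cGAS KO. At least 1 log2 unit above both B6 mice were 6 genes, which included cxcl9, cxcl6, Ifi47, Icam1 and socs1, and 17 genes were at least 1 log2 unit below both. The limma interaction of cGAS genotype and strain, which compares the cGAS KO minus WT difference in Fas lpr with that in B6, was called for 27 genes (29.0%), 23 of them lower (24.7%) and 4 higher (4.30%). Here each B6 genotype is a single mouse assumed to vary like the Fas lpr mice, so that a call describes a difference between single B6 mice and is no test of genotype. For these 27 genes the cGAS KO minus WT difference was between -0.45 (cox2) and 0.31 (cxcl10) in Fas lpr and between -1.92 (Ifi204) and 2.87 (duba) in the B6 mice, so that most of the difference lay in the B6 mice. Of the 21 genes called higher against B6, 8 also had this interaction, and of the 31 called lower, 2. Genotype, single mouse and total count of the B6 samples cannot be told apart here.

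**Figure D4:**
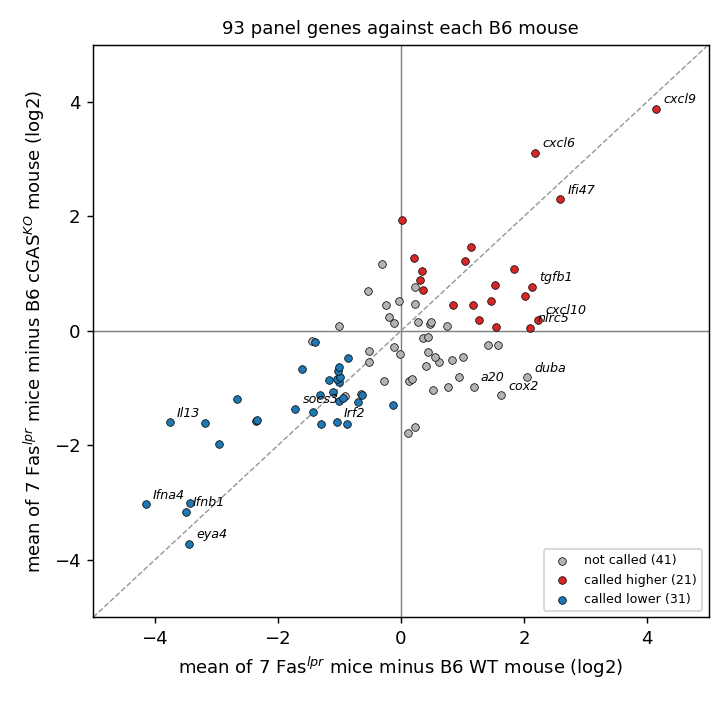
Mean centred value of the 7 Fas lpr mice minus that of the B6 WT mouse (x axis) and minus that of the B6 cGAS KO mouse (y axis), in log2 units, for 93 genes. cxcl9 (4.15 and 3.88) and Ifi47 (2.59 and 2.30) lie near the dashed line of equality, whereas cxcl10 (2.23 and 0.20) and nlrc5 (2.10 and 0.05) differ from the B6 WT mouse only.

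The promoters of all panel genes were searched for 3 motifs on both strands in the RefSeq table for GRCm38.p6. These were GAAA and GAAA with any 2 bases between them, the core of the interferon-stimulated response element, TTC and GAA with any 3 bases between them, the gamma-activated site, and GGG and CC with any 5 bases between them, an NF-kB site. Each motif was searched by itself, and matches may overlap. All 93 panel names were paired with a symbol, and 67 of these have promoters of 300 bases in the table. The response element core was found in 3.44% of all 32851 promoters and in 16.3% of the 86 promoters of panel genes, the gamma-activated site in 8.30% and 16.3%, and the NF-kB letters in 50.8% and 60.5%. Counted by gene, the core was found in 2 of 11 genes called higher, 5 of 22 called lower and 6 of 34 not called, beside 19.4% of panel genes and 3.99% of all genes. The gamma-activated site was found in 3 of 11, 5 of 22 and 6 of 34 (20.9% of panel genes and 9.55% of all genes). The NF-kB letters were found in 10 of 11, 13 of 22 and 19 of 34 (62.7% and 53.5%). Of the 5 interferon-gamma axis genes with a promoter, 1 holds the core, 2 the gamma-activated site and 3 the NF-kB letters. The core was found in 6 of 11 type I interferon targets with a promoter (54.5%). The genes shown are 5 that were called higher and Irf2, which was called lower and holds all 3 motifs, and capitals mark every match.
cxcl9 (chr5:92328030-92328329, minus strand): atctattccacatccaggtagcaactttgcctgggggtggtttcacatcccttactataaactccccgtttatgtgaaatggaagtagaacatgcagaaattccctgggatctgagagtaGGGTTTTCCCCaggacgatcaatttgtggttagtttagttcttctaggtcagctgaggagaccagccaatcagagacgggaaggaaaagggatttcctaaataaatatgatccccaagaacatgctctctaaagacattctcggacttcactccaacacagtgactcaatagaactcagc
cxcl10 (chr5:92348840-92349139, minus strand): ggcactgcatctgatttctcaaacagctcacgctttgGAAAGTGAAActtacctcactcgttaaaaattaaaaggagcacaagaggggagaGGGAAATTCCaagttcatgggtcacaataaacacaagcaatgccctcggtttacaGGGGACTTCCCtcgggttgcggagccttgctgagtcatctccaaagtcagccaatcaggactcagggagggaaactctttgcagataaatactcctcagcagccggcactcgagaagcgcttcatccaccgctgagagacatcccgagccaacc
Irf1 (chr11:53769764-53770063, plus strand): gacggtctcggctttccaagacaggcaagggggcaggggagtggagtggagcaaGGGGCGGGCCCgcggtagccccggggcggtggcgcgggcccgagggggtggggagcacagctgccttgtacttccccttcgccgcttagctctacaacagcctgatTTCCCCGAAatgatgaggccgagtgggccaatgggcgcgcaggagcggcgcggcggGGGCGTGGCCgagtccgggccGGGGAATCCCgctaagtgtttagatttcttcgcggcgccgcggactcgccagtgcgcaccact
socs1 (chr16:10785487-10785786, minus strand): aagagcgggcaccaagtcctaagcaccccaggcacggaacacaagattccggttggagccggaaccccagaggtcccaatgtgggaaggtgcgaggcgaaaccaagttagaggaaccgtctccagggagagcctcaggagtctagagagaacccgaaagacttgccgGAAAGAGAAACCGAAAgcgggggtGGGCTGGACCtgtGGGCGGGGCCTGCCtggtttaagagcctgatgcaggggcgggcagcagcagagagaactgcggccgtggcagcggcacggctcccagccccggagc
Icam1 (chr9:21015690-21015989, plus strand): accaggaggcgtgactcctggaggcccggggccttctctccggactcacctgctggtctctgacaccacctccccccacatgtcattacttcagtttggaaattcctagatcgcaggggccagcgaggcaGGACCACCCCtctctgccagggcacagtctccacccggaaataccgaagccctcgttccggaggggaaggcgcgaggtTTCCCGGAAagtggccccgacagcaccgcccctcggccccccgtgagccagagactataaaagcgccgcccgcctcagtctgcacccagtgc
Irf2 (chr8:46739495-46739794, plus strand): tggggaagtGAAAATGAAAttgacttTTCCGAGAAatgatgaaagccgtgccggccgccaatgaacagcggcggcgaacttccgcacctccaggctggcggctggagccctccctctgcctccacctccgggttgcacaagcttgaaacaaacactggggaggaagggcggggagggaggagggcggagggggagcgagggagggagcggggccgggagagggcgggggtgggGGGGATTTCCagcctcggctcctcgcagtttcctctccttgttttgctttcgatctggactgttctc
cxcl9 holds only the NF-kB letters in this window, cxcl10 and socs1 the response element core and the NF-kB letters, and Irf1 and Icam1 the gamma-activated site and the NF-kB letters. The promoter of Ifi47 in the table holds none of them. A match shows that the letters are present and does not mark a bound site.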

How the data were processed

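RNA signal from spleens of 7 Fas lpr and 2 uninjected B6 mice was analysed. The deposited signal had been normalized by the authors to housekeeping genes, which are not named in the sources used here, and background subtraction is not given. All 1023 values were whole multiples of a factor per mouse (tolerance 0.0001 counts), which gave the counts used here. Signal was taken as log2, without a pseudocount (0 values were at 0), and centred on the median of the 93 genes. A moderated linear model per gene was fitted in R 4.3.3 with limma 3.58.1, and its two-sided p-values were adjusted by Benjamini-Hochberg over 93 genes, with calls at an adjusted p under 0.05. The fit was tested on simulated data. Named genes are the 12 largest differences in each direction among called genes with a mean count of at least 20, the 4 largest falls below that, the interferon lists, and the 4 genes that differ most between the B6 mice. ccr2, cd80 and cd86 were named after their values were seen. 1 gene that the rule names is not reported here. The members and the gene lists were chosen with earlier results of these data known. Promoter names were matched by symbol (78), synonym (11) or common name (4). Mice of a group differed by more than sampling noise in their counts (chi-square 2.91 to 19.9 times its degrees of freedom). Other settings were other centrings, low-count limits, models and mice left out. SciPy 1.17.1, Python 3.11.15 and Matplotlib 3.10.9 were used.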

Additional observations from a re-analysis of the deposited data

Results flagged for a closer look

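A limma interaction of cGAS genotype and strain was called for 14 of the named genes. It was negative, with a larger cGAS KO minus WT difference in the B6 mice, for cox2 (-3.20), duba (-3.14), a20 (-2.18), viperin (-2.10), mndal (-1.87), nlrc5 (-1.87), samhd1 (-1.74), cxcl10 (-1.72), tgfb1 (-1.41), Ifit2 (-1.41), ccl5 (-1.32), Irf1 (-0.92) and adar (-0.85). It was positive for Ifi204 (1.90), which had 11 counts in B6 WT and 5 in B6 cGAS KO. Each B6 value is that of a single mouse, whose spread was taken from the Fas lpr mice, so that these values describe single mice and do not test genotype, and the B6 WT mouse had the lowest total count (3612), whose part was not tested.

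In 7 of 94 sets of values from the 7 Fas lpr or the 4 cGAS KO/Fas lpr mice, a single mouse stood apart by the ratio of its gap to the range, where chance gives about 1 in 20. WT/Fas lpr mouse 1, which had the lowest total count of the 7 (28406), was lowest for socs1 (ratio 0.609, centred value 0.62) and nlrc5 (0.648, centred value 2.41) and highest for cox2 (0.664, centred value -1.0). cGAS KO/Fas lpr mouse 2 was highest for Irf1, both among the 7 mice (0.588) and among the 4 (0.892), at a centred value of 3.95. cGAS KO/Fas lpr mouse 1 was highest among the 4 for Irf2 (0.880, centred value 2.28) and Ifng (0.956, centred value -1.10). These mice were kept in all fits.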

How the results depend on the processing

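Of the 32 genes named by the rule that were called, 31 kept their direction under each of the 26 other settings in which they were tested, except the deposited scale. The test of genes with a mean count of at least 20 left out 5 of them, Ifna4, eya4, Ifnb1, Il23a and Il13. The exception was Ifi204, which was at -0.45 with counts raised to at least 20. Direction and call were both kept by 21 of the 32 in the settings in which they were tested, other than the deposited scale, the block and Mann-Whitney, and 11 lost a call in at least 1 of them. These were ccl5, cxcl10, nlrc5, Irf1, Ifi204, nos2, Il-10, nlrp3, Ifng, Ifit1 and oas2. cd80 and cd86, which are outside the rule, also lost their calls in several settings. Raising counts to 20 tests nothing for the 7 genes with no count above 20 in any mouse, among them Ifna4, Il23a and Il13, as all of them get the same difference of -2.56 from the shift of the medians, also the 2 that were not called before. Without centring, these genes called lower were higher in Fas lpr, as the whole panel was: nos2 (3.35), socs3 (3.74), Il12b (3.82), mnda (3.86), Irf2 (3.96), Irf5 (4.03), Il12a (4.06), Il-10 (4.14), ccl4 (4.22), nlrp3 (4.26), prdm1 (4.30), Ifng (4.32), Ifna4 (1.69), eya4 (1.70), Ifnb1 (1.95), Il23a (2.07), Ifit1 (4.42), oas2 (4.38) and Il13 (2.60). The centring itself sets this change.

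The 21 higher calls became 93 on the deposited scale, 10 with centring on the upper quartile and 0 with the exact Mann-Whitney test. They became 10 with centring on the 45 genes that have at least 20 counts in every mouse, a setting chosen after seeing the data (43 lower). The 31 lower calls became 0 on the deposited scale, 0 with Mann-Whitney and 19 when only the 78 genes with a mean count of at least 20 were tested, where fewer genes could be called. With counts raised to at least 20 there were 16 higher and 41 lower, which include these 7. The 27 interaction calls became 41 on the deposited scale. Leaving out a mouse gave 15 to 28 higher, 27 to 37 lower and 20 to 30 interaction calls. Without B6 WT, 16 of the 21 higher and 25 of the 31 lower calls were kept, and without B6 cGAS KO 16 and 30, with the lone B6 mouse assumed to vary like the Fas lpr mice. The WT mice alone gave 25 and 32 calls, the cGAS mice alone 15 and 30.

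Mouse numbers 1 to 3 occur in both Fas lpr genotypes, but the deviations of equally numbered mice correlated at -0.198, 0.254 and 0.113 across genes, and the mice are not taken as pairs. With the mouse number as a block, 8 genes were called higher and 23 lower. Few counts in the B6 mice limit the comparisons with them for many genes, as 24 genes had fewer than 20 counts in both B6 mice. Another 45 genes had at least 20 counts in both. The part of the low total counts of the B6 mice in the comparisons of these 45 genes was not tested.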
